A study of Mus musculus with 9 samples.

Results

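Genes for the protein components of the cytosolic ribosome, together with their paralogs, were examined in RNA-seq counts from mouse germ cells sorted just before and at meiotic entry. The members were the rows whose gene symbol follows the Rpl or Rps naming of cytosolic ribosomal proteins (including Rpsa and Rplp0 to Rplp2) and that hold any count, with symbols ending in -ps for pseudogenes left out. This gave 86 of 24505 genes in the table. They comprised 46 canonical genes of the large subunit, 31 canonical genes of the small subunit and 9 paralogs, 7 of a large subunit gene and 2 of a small subunit gene.

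The study asked whether retinoic acid (RA) is needed when spermatogonia enter meiosis. All mice carried a Uchl1-eGfp transgene, in which the Uchl1 promoter drives EGFP, on a mixed background of C57BL/6 outcrossed to CD-1. According to the paper the line was made to label motor neurons. In the testis it describes EGFP as high in spermatogonia and low in preleptotene spermatocytes. All mice received WIN 18,446, an inhibitor of RA synthesis, at 100 µg/g from postnatal day 1. They then received 10 µl of RA at 10 µg/µl on day 11, so that spermatogenesis was synchronized in every group. Intermediate and type B spermatogonia (In/B) were sorted as bright EGFP cells on day 17, and preleptotene spermatocytes (PL) as dim EGFP cells on day 19, either after WIN 18,446 had been stopped (RA-sufficient PL) or while it was continued (RA-deficient PL). The paper describes the In/B spermatogonia as RA-sufficient. RA-deficient PL therefore differed from In/B in inhibitor treatment as well as in stage and day. Each group had 3 libraries. The sample labels give at least 5 pups of a litter per preparation, the labels also name outbred CD-1 mice as used, and the study's methods give 2 or 3 independent cell preparations for RNA-seq, so the spread between some libraries of a group may be technical.

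A ribosome holds a single copy of nearly every one of these proteins, so their genes are transcribed at coordinated, high levels, and their mRNAs share a pyrimidine tract at the 5′ end through which the mTOR pathway controls their translation. Several ribosomal protein genes lie on the X chromosome, which is silenced later in male meiosis, and some of these have autosomal copies that are used in the testis. Rpl10l, an intronless copy of the X-linked Rpl10, and Rpl39l, a copy of the X-linked Rpl39, are the best known of these.

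The first 180 coding bases of Rpl10 and Rpl10l are shown because this pair moved in opposite directions in the counts. The pair Rpl36a and Rpl36al is shown because both genes encode the same protein. Capitals mark the bases at which the members of a pair differ, 30 in each pair, and the sequences are the reference transcripts of the NCBIM37 (mm9) annotation read 5′ to 3′.
Rpl10: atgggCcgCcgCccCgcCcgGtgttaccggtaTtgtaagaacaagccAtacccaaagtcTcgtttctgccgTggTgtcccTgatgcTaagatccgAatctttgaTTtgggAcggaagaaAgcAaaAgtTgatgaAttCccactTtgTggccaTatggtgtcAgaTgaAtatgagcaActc
Rpl10l: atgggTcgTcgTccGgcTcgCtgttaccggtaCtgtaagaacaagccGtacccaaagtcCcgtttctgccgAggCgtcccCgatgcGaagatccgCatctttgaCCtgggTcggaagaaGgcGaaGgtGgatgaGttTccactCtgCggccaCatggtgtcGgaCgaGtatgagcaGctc
Rpl36a: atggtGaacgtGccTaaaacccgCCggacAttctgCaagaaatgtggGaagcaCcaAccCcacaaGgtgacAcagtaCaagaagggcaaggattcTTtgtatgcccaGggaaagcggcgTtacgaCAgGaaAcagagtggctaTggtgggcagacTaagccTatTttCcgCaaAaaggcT
Rpl36al: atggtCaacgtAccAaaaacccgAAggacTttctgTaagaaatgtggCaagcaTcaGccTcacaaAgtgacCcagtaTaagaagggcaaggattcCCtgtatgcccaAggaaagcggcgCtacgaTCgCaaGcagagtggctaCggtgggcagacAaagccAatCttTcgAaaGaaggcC

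Over the whole coding sequence Rpl10l and Rpl10 were identical at 84.8% of bases and 98.6% of residues, with 3 of 214 residues different. Rpl36al and Rpl36a encode the same 106 residues from coding sequences identical at 87.9% of bases. Rpl39l differed from Rpl39 at 3 of 51 residues (94.1% identity), Rps4l from Rps4x at 17 of 262 aligned residues, and Rpl3l from Rpl3 at 92 of 402. The computed difference of Rps27l from Rps27 was 9 of 84 aligned residues. The transcript used for Rps27l codes for 105 residues against 84 for Rps27, so this count depends on the transcript and is uncertain. Rpl22l1 and Rpl22 were 73.8% identical. For Rpl7l1, a protein of large subunit assembly, and Rpl7 the computed identity was 23.4% of residues and 57.8% of coding bases. The reference transcript used for Rpl7 is annotated as coding over all of its 838 bases, which is not a multiple of 3. Its reading frame, and with it the residue identity of this pair, is therefore uncertain. In none of these 8 pairs did paralog and parent share a stretch of 75 bases, the read length, so full-length matching reads can be told apart within a pair.

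Total counts ranged from 12612959 to 27042274 per library. In each group 1 library stood apart from the other 2 by correlations of log counts. RA-deficient PL replicate 3 was at 0.931 and 0.930, against 0.979 between the other 2. RA-sufficient PL replicate 1 was at 0.967 and 0.962 against 0.991. In/B replicate 1 was at 0.9755 and 0.9749 against 0.9943. All 6 meiotic prophase genes (Sycp3, Sycp1, Dmc1, Spo11, Prdm9 and Hormad1) were called higher in each PL group than in In/B. The sum of 4 genes of differentiating spermatogonia was 1094 to 1249 CPM in In/B and 255.8 to 610 in RA-sufficient PL, and 1600, 1567 and 315 in RA-deficient PL, where replicate 3 was the low library. Of these 4 genes 3 were called higher in RA-deficient than in RA-sufficient PL. The sum of 6 stem and progenitor genes was 202 to 354, 130 to 185 and 190 to 315 CPM in the 3 groups. Single genes of this list did not all follow the sum. Against In/B, 3 of the 6 were called higher and 2 lower in RA-sufficient PL, and 3 higher and 0 lower in RA-deficient PL. The RA-sufficient PL libraries also held more somatic RNA by the sums of marker genes. The summed level of 7 Sertoli cell genes was 2751 to 3581 CPM (counts scaled to library size with TMM factors) there, against 61.8 to 337 in In/B and 277 to 496 in RA-deficient PL, and the sum of 8 peritubular and stromal genes was 1006 to 1375 against 103 to 164 and 158 to 202. The 7 Sertoli genes, Sox9, Wt1 and Clu among them, were called higher in RA-sufficient PL than in In/B and lower in RA-deficient than in RA-sufficient PL. The 8 peritubular and stromal genes were less uniform: 6 were called higher and 1 lower in RA-sufficient PL against In/B. In RA-deficient against RA-sufficient PL, 2 of them were called lower and 1 higher, with a median log2 fold change of -0.13. Leydig cell genes summed to 9.56 to 15.9 CPM in In/B, 32.5 to 38.6 in RA-sufficient PL and 12.05 to 24.05 in RA-deficient PL, with Insl3 at 0 in In/B and RA-deficient PL. Macrophage and blood genes stayed between 3.57 and 13.7 CPM in all libraries, and the globin genes Hba-a1 and Hbb-b1 were at 0 in all of them. The sum of 5 germ cell genes was 4518 to 5600 CPM in In/B, 2273 to 2652 in RA-sufficient PL and 4197 to 5224 in RA-deficient PL. These genes did not move as 1. Against In/B, 2 of the 5 were called lower in RA-sufficient PL and 1 passed higher, with a median log2 fold change of -0.32. In RA-deficient PL 2 were called higher and 1 lower. The list includes Uchl1, whose promoter drives the EGFP used for sorting. The somatic, germ cell and differentiating spermatogonia sums move with each comparison that includes RA-sufficient PL, and their part in the results was not tested. In bulk samples, fewer cells of a type and less RNA per cell cannot be told apart.

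Ribosomal protein genes took a smaller share of the counted reads in both PL groups than in In/B. The share was 2.38%, 1.99% and 1.78% in the 3 In/B libraries, 0.888%, 0.962% and 1.19% in RA-sufficient PL, and 1.33%, 1.41% and 1.26% in RA-deficient PL. The 3 groups did not overlap. The means were 2.05% ± 0.303 (SD, n = 3), 1.01% ± 0.159 and 1.33% ± 0.0755. Counting error was small beside this spread: the 95% Wilson interval of the shallowest library ran from 0.882% to 0.893%, and such intervals cover counting error only.

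Both subunits followed this order. Large subunit genes held 1.19% ± 0.179 of counts in In/B, 0.579% ± 0.0794 in RA-sufficient PL and 0.801% ± 0.0551 in RA-deficient PL. Small subunit genes held 0.819% ± 0.120, 0.405% ± 0.0752 and 0.501% ± 0.0232. The ratio of large to small subunit counts was 1.44 to 1.46 in In/B, 1.37 to 1.502 in RA-sufficient PL and 1.53 to 1.65 in RA-deficient PL, so the RA-deficient libraries lay above the other 6. The 9 paralogs together held 0.0418% ± 0.00395, 0.0295% ± 0.00421 and 0.0300% ± 0.00234.

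**Figure D1:**
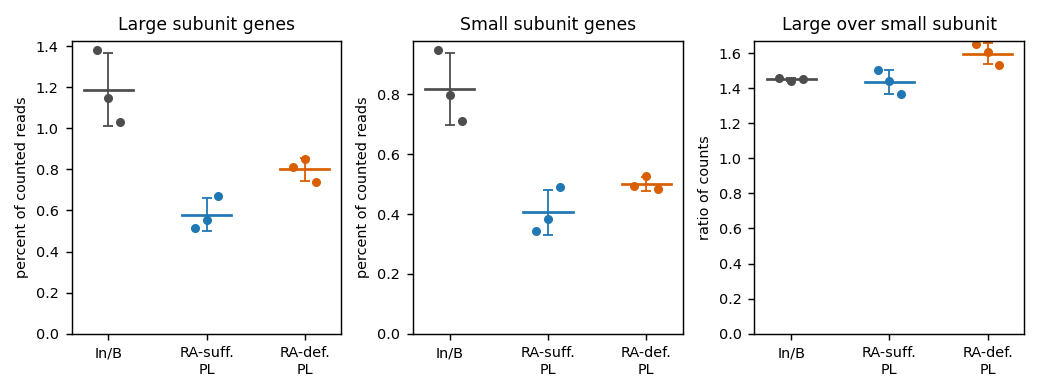
Percent of all counted reads on canonical large subunit genes (left) and small subunit genes (middle), and the ratio of their counts (right), in each of the 9 libraries; points are libraries, horizontal lines are means and bars are SD (n = 3). In/B libraries are highest for both subunits, and the RA-deficient PL libraries have the highest ratio (1.53 to 1.65).

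Gene by gene, the decline was seen in every PL library. Against the In/B mean, on log2(CPM + 0.5), the median of the 75 canonical genes tested in all comparisons was -1.27, -1.13 and -0.82 in the RA-sufficient PL libraries and -0.57, -0.56 and -0.74 in the RA-deficient PL libraries. In the 6 PL libraries, 60 to 73 of the 75 genes lay below the In/B mean. The In/B libraries themselves spread from 0.17 in replicate 1 to -0.23 in replicate 3, in the order of their shares of counts. In/B replicate 1 also had the lowest sum of Sertoli genes.

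**Figure D2:**
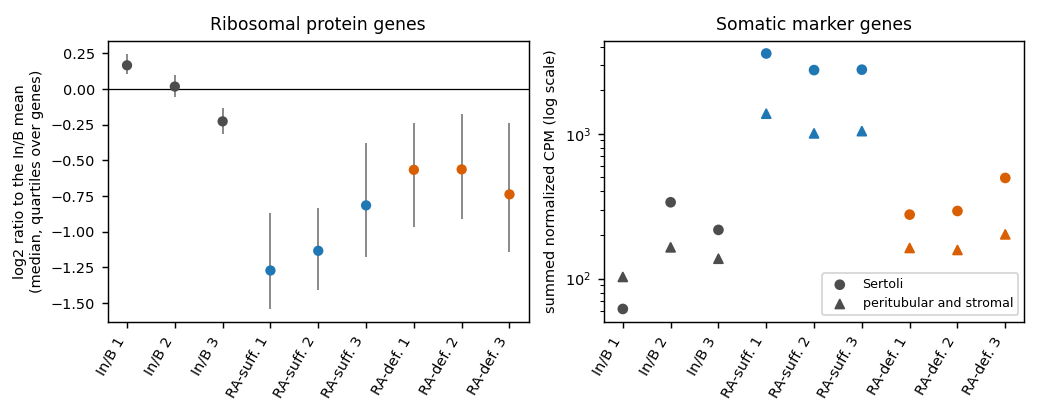
Left, median log2 ratio of 75 canonical ribosomal protein genes to the In/B mean in each library, on log2(CPM + 0.5), with bars from the lower to the upper quartile over genes. Right, summed normalized CPM of Sertoli genes (circles) and of peritubular and stromal genes (triangles) in the same libraries, on a log axis; both sums are highest in the 3 RA-sufficient PL libraries.

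In RA-sufficient PL against In/B, 77 of 83 tested members had a lower estimate and 6 a higher estimate, with a median log2 fold change of -0.95 against 0.04 over all 15001 genes tested. A gene was called when edgeR's quasi-likelihood test, adjusted over all genes by Benjamini-Hochberg, gave an adjusted p below 0.05 and the absolute log2 fold change was above 1. By this rule 39 members (47.0%) were called lower, against 19.3% of all genes tested, and 0 were called higher, against 26.1%. DESeq2 also called 0 members higher, and none passed an unadjusted p below 0.05 with that fold. With no limit on the fold change, 58 members (69.9%) passed lower against 31.2% of all genes, and 1 member, Rpl10l, passed higher against 33.8%. Groups did not overlap, with all RA-sufficient PL libraries below all In/B libraries, for 59 members (71.1%) against 35.9% of all genes, and for 1 member in the higher direction against 35.6%.

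In RA-deficient PL against In/B the same In/B libraries served as controls. The estimate was lower for 63 of 84 tested members and higher for 21, with a median of -0.42 against 0.00 over 14877 genes. In all, 14 of 84 members (16.7%) were called lower against 11.8% of all genes, and 3 were called higher (3.57%) against 11.4%. With no limit on the fold change, 39 members (46.4%) passed lower against 18.3%, and 9 (10.7%) passed higher against 18.4%. The groups did not overlap for 51 members in the lower direction (60.7% against 33.6%) and for 8 in the higher direction (9.52% against 21.0%). The share called lower was thus near that of all genes, whereas the share past the test without the fold limit was above it. When scaled by library size alone, which moved the median of all genes to -0.31, the members called lower numbered 27 and the median of the members was -0.74, and without In/B replicate 1 the members called lower numbered 9. Without In/B replicate 2, 25 members passed lower and 3 higher, and without In/B replicate 3, 3 passed higher.

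**Figure D3:**
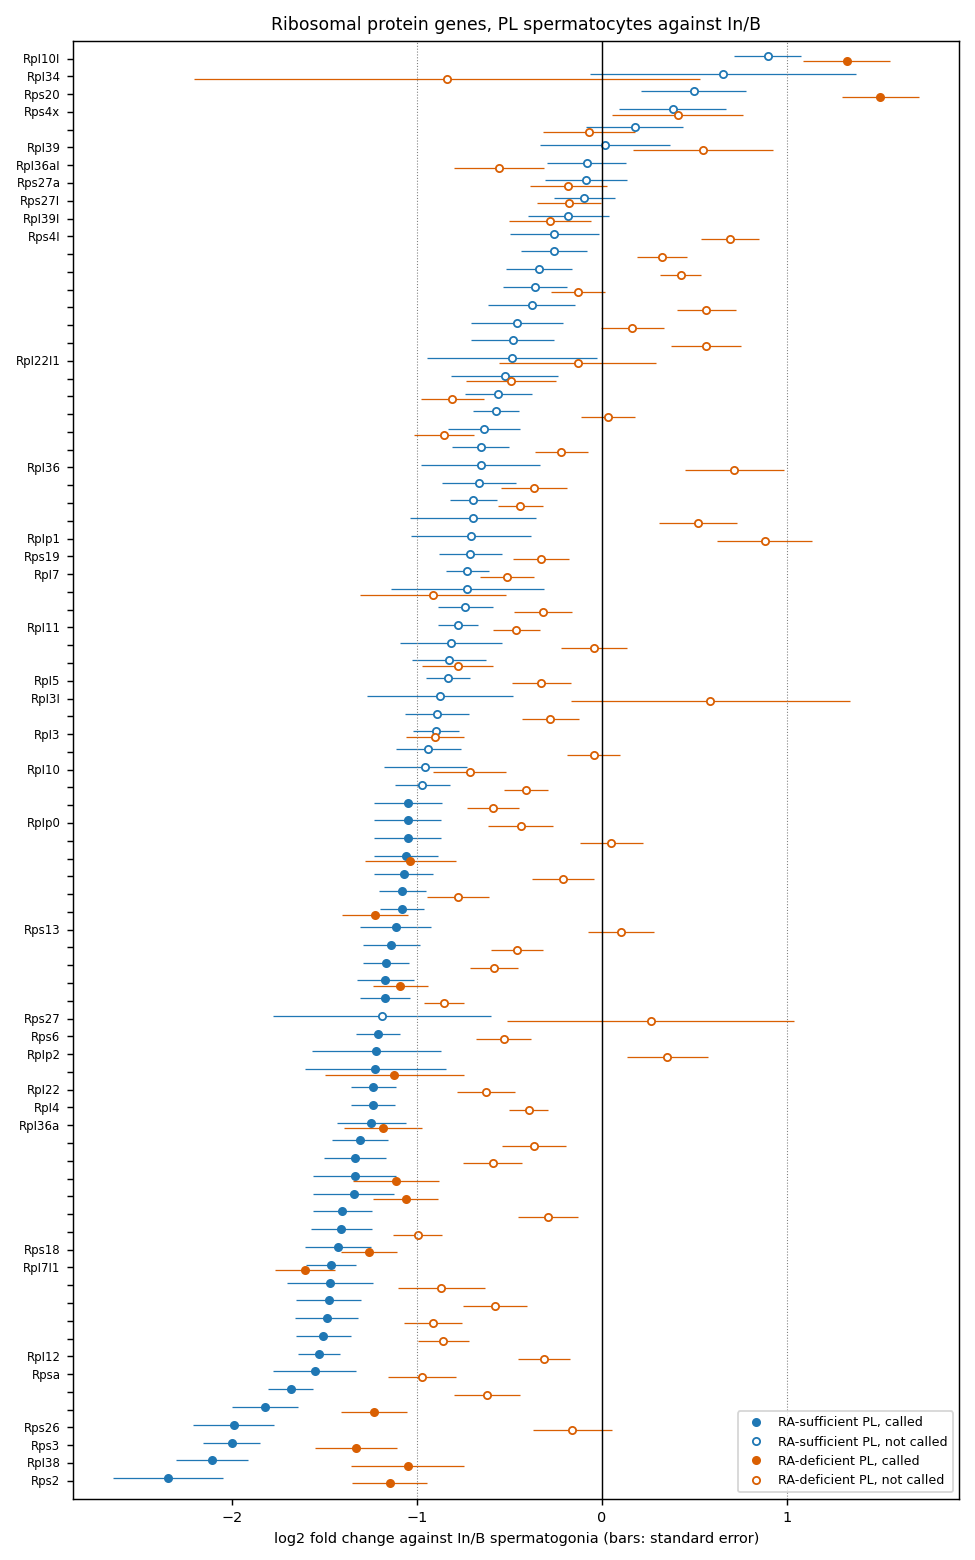
Log2 fold change of ribosomal protein genes and paralogs tested in both comparisons (rows, ordered by the RA-sufficient value, with genes described in the text labelled) in RA-sufficient PL (blue) and RA-deficient PL (orange) against In/B, with bars of 1 standard error; filled points are called genes and dotted lines mark a log2 fold change of 1 in either direction. Most blue points lie left of 0 and left of the orange point of their row.

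The direct comparison of the PL groups gave the difference itself. In RA-deficient against RA-sufficient PL, 65 of 84 tested members had a higher estimate and 19 a lower one, with a median of 0.47 against -0.09 over 15352 genes. Here 8 of 84 members (9.52%) were called higher against 4.47% of all genes, and 0 were called lower against 11%. Without the fold limit, 29 members (34.5%) passed higher against 11%, and 0 passed lower against 12.6%. DESeq2 also gave 0 lower by either rule, and 0 members had a lower estimate at an unadjusted p below 0.05. All RA-deficient PL libraries lay above all RA-sufficient PL libraries for 40 members (47.6% against 20.1%) and below them for 1 (1.19% against 27.3%). The count of members called higher rested on single libraries: it was 5 without RA-sufficient PL replicate 2, 15 without RA-sufficient PL replicate 3 and 13 without RA-deficient PL replicate 3. Members past the test without the fold limit numbered 9 without RA-sufficient PL replicate 2, 18 without RA-sufficient PL replicate 1, 15 without RA-deficient PL replicate 1 and 13 without RA-deficient PL replicate 2.

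Canonical genes of both subunits declined. The median log2 fold change of 44 tested large subunit genes and of 31 small subunit genes was -1.05 and -1.05 in RA-sufficient PL, -0.46 and -0.44 in RA-deficient PL, and 0.47 and 0.48 between the PL groups. The quartiles over the canonical genes were -1.32 and -0.66 in RA-sufficient PL, and -0.86 and -0.06 in RA-deficient PL, so single genes differed widely around these medians. The 9 paralogs stood at medians of -0.22 over 8 tested genes, -0.13 and 0.26.

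Among the small subunit genes, Rps2, Rps3 and Rps26 were among the 4 members with the largest falls in RA-sufficient PL. Rps2, a protein near the mRNA entry channel, was at 332, 564 and 544 CPM in In/B, 54.1, 112 and 106 in RA-sufficient PL, and 212, 201 and 164 in RA-deficient PL. The 3 groups were fully separate. Its log2 fold change from edgeR's quasi-likelihood test was -2.34 ± 0.30 (SE; adjusted p = 2.00e-04) in RA-sufficient PL and -1.15 ± 0.20 (adjusted p = 0.00355) in RA-deficient PL.

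Rps3, which also lines the mRNA entry and was among the 3 members with the highest CPM in In/B, was at 762, 565 and 553 CPM in In/B, 151, 156 and 146 in RA-sufficient PL, and 245, 265 and 158 in RA-deficient PL. Both PL groups lay wholly below In/B and fell by 2.00 and 1.33 on the log2 scale. No 75-base stretch of its transcript had an exact copy elsewhere in the genome. Rps18 (-1.43 and -1.26) was also called lower in both PL groups.

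Rps26, a protein near the mRNA exit channel, behaved differently in the PL groups. It was at 650, 402 and 403 CPM in In/B and at 98.7, 125 and 130 in RA-sufficient PL, but at 430, 401 and 333 in RA-deficient PL, where it overlapped In/B. The difference between the PL groups, 1.72 ± 0.14 on the log2 scale (adjusted p = 8.15e-04), was the largest of the called members.

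Rps20, a protein of the head of the small subunit, was the only canonical gene called higher in RA-deficient PL against In/B. Of the 75 canonical genes tested there, 17 had a higher estimate and 6 passed higher without the fold limit. The level of Rps20 was 188, 179 and 135 CPM in In/B, 142, 200 and 339 in RA-sufficient PL, and 328, 396 and 544 in RA-deficient PL. All RA-deficient libraries lay above In/B, and the rise of 1.51 ± 0.21 (adjusted p = 0.00115, edgeR's quasi-likelihood test) was called. The RA-sufficient libraries overlapped In/B (0.50 ± 0.28, adjusted p = 0.154), and the PL groups were not called different (0.90 ± 0.31, adjusted p = 0.0734), except without RA-sufficient PL replicate 3 (1.28, adjusted p = 0.0302). Of the Rps20 transcript, 7.21% of 75-base windows (262 of 3632) had an exact copy elsewhere. That reference transcript is 3706 bases long with only 360 coding bases. The percentage depends on this choice and does not show that reads of Rps20 are free of copied sequence.

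Rpl4, a large subunit gene, fell in both PL groups. It was the member with the highest CPM in In/B, at 1596, 1435 and 1350, and stood at 544, 597 and 649 in RA-sufficient PL and 1012, 1052 and 902 in RA-deficient PL, with no overlap between any 2 groups. Rpl38, whose loss alters the translation of patterning genes in mouse embryos, had a fall of 2.11 on the log2 scale in RA-sufficient PL, from 70.8, 49.7 and 69.8 to 13.8, 14.6 and 14.2 CPM. In RA-deficient PL it was at 37.9, 27.0 and 17.2 CPM, called lower at -1.05 ± 0.31 (adjusted p = 0.0293 by edgeR's quasi-likelihood test), a call that was lost without RA-deficient PL replicate 2 or 3 (-1.06 and -0.80) and without In/B replicate 1 or 3 (-0.96 and -0.98). Between the PL groups Rpl38 was called higher only without RA-deficient PL replicate 3 (1.20, adjusted p = 0.00545).

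The stalk of the large subunit, built of Rplp0 and of pairs of Rplp1 and Rplp2, recruits and activates the elongation factors. Rplp0, the base of the stalk, was at 823, 588 and 515 CPM in In/B, 272, 304 and 322 in RA-sufficient PL and 417, 415 and 436 in RA-deficient PL. It was called lower in RA-sufficient PL (-1.05 ± 0.18; -0.83 and -0.996, not called, without In/B replicate 1 or RA-sufficient PL replicate 1), and its estimate of -0.44 ± 0.18 in RA-deficient PL did not pass (adjusted p = 0.0858, edgeR's quasi-likelihood test).

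Rplp1 and Rplp2 were both called higher in RA-deficient than in RA-sufficient PL. Rplp1 was at 593, 457 and 300 CPM in In/B, 175, 227 and 396 in RA-sufficient PL and 564, 770 and 882 in RA-deficient PL. Rplp2 was at 302, 212 and 161, then 52.1, 87.2 and 141, then 237, 275 and 257. For both genes the PL groups did not overlap, and the differences were 1.48 ± 0.30 and 1.47 ± 0.30 on the log2 scale. Against In/B, Rplp1 rose in RA-deficient PL by 0.88 ± 0.26 (adjusted p = 0.0293), with overlapping groups, and Rplp2 did not pass (0.35 ± 0.22). Rplp0 itself differed between the PL groups by 0.49 ± 0.09 (adjusted p = 0.0105). Between the PL groups the call of Rplp1 was lost without RA-sufficient PL replicate 2 (1.37, adjusted p = 0.058), and that of Rplp2 without the same library or RA-deficient PL replicate 2 (1.42 in both). Against In/B, Rplp2 was called lower in RA-sufficient PL (-1.22 ± 0.35), except without In/B replicate 1 or RA-sufficient PL replicate 1 (-0.95 and -0.94).

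Other members called higher in RA-deficient than in RA-sufficient PL included Rpl36 (1.26 ± 0.23), Rps13 (1.11 ± 0.20), Rpl12 (1.10 ± 0.13) and Rps2 (1.09 ± 0.26). Rpl36, Rps13 and Rpl12 were named after their values were seen. Rpl12, a neighbour of the stalk base, was at 620, 568 and 511 CPM in In/B, 182, 187 and 198 in RA-sufficient PL and 440, 441 and 337 in RA-deficient PL. Rpl36 was at 77.2, 81.1 and 37.4, then 36.0, 28.9 and 54.5, then 90.3, 102 and 93.5, so that its RA-deficient libraries lay above In/B as well, by 0.72 ± 0.27 with no pass of the test. Scaled by library size alone, Rps2, Rpl12 and Rps13 kept their direction between the PL groups at 0.90, 0.92 and 0.92 and were no longer called. The call of Rps2 was also lost without RA-deficient PL replicate 1 or 2 or RA-sufficient PL replicate 1 or 3 (0.84 to 1.19), and that of Rps13 without RA-sufficient PL replicate 2 (1.02).

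**Figure D4:**
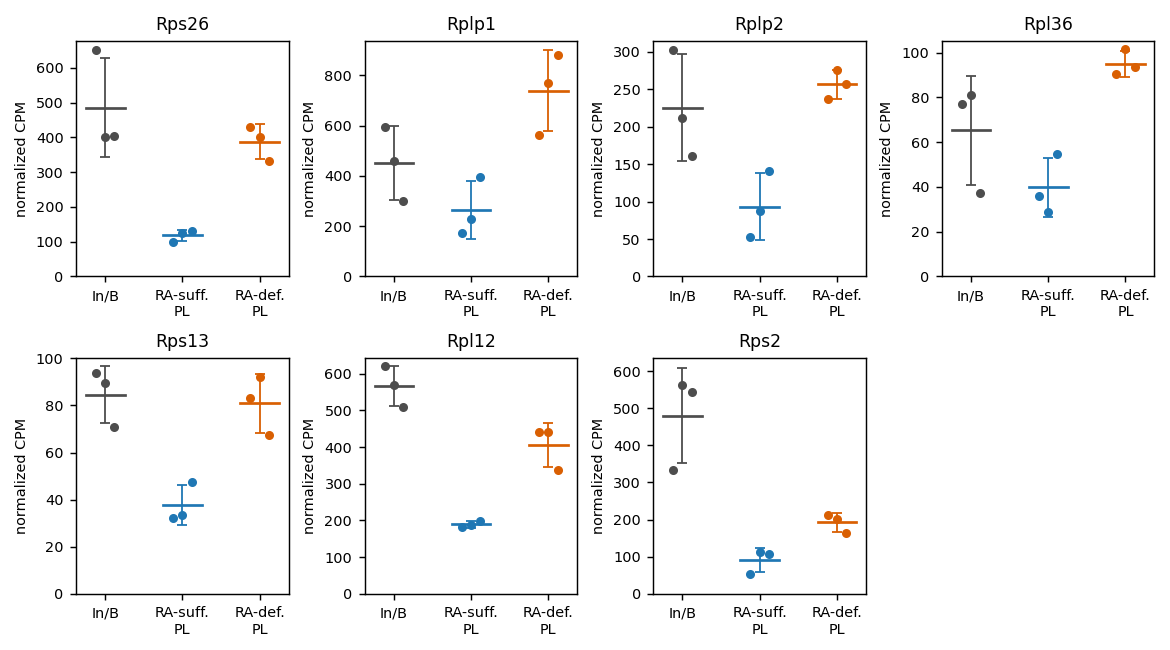
Normalized CPM (TMM scaling) in each library of Rps26, Rplp1, Rplp2, Rpl36, Rps13, Rpl12 and Rps2, called higher in RA-deficient PL than in RA-sufficient PL; points are libraries, lines means and bars SD (n = 3). In each panel the 3 RA-deficient PL libraries lie above the 3 RA-sufficient PL libraries.

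Several ribosomal proteins have roles outside the ribosome. Rpl5 and Rpl11, which with 5S rRNA bind Mdm2 when ribosome assembly is disturbed, fell by 0.83 and 0.78 on the log2 scale in RA-sufficient PL. In RA-deficient PL Rpl11 passed at -0.46 ± 0.13 and Rpl5 was at -0.33 ± 0.16 (adjusted p = 0.145, edgeR's quasi-likelihood test). Rps6, the substrate of S6 kinase, was called lower in RA-sufficient PL (-1.21 ± 0.12) and was at -0.53 ± 0.15 (adjusted p = 0.0256) in RA-deficient PL. Rpsa, also known as the laminin receptor, was at 483, 321 and 316 CPM in In/B, 91.3, 139 and 137 in RA-sufficient PL and 171, 164 and 175 in RA-deficient PL, with no overlap between the groups. Rps19, which is mutated in Diamond-Blackfan anaemia, fell by 0.71 in RA-sufficient PL, and its value of -0.33 in RA-deficient PL did not pass. Rps27a, made as a fusion with ubiquitin, overlapped in all 3 groups (-0.09 ± 0.22 and -0.18 ± 0.21).

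Rpl10l was the only member that passed the test in the higher direction in RA-sufficient PL. The gene has a single exon on chromosome 12 (chr12:67384368-67385388, minus strand, NCBIM37), and Rpl10 lies on the X chromosome (chrX:71516151-71518474, plus strand). Rpl10l was at 17.8, 16.7 and 16.3 CPM in In/B, 30.8, 26.5 and 33.7 in RA-sufficient PL and 30.7, 33.4 and 49.3 in RA-deficient PL. All 6 PL libraries lay above all 3 In/B libraries, by 0.90 ± 0.18 (adjusted p = 0.00232) and 1.32 ± 0.24 (adjusted p = 0.00357) on the log2 scale. The difference between the PL groups did not pass (0.31 ± 0.24, adjusted p = 0.385, edgeR's quasi-likelihood test).

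Rpl10 moved the other way. It was at 72.3, 71.1 and 54.1 CPM in In/B, 24.1, 31.3 and 42.7 in RA-sufficient PL and 35.1, 42.1 and 29.8 in RA-deficient PL, again with no overlap between In/B and either PL group, and fell by 0.95 and 0.71. Rpl10l therefore took 19.8%, 19.03% and 23.1% of the counts of the pair in In/B, 56.2%, 45.8% and 44.1% in RA-sufficient PL, and 46.6%, 44.2% and 62.3% in RA-deficient PL. Per kilobase of transcript, Rpl10l stood at 16.6 CPM and Rpl10 at 82.4 in In/B, at 29.7 and 40.9 in RA-sufficient PL, and at 37.0 and 44.7 in RA-deficient PL. The level of Rpl10, its change and the share of the pair are all uncertain. Of the 75-base windows of its transcript, 94.1% have an exact copy elsewhere in the genome, against 14.3% for Rpl10l. The handling of reads with several matches is not given in the sources used here.

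Rpl36a, also on the X chromosome, was called lower in both PL groups (-1.25 ± 0.19 and -1.18 ± 0.21), from 73.4, 70.2 and 51.0 CPM to 23.7, 25.3 and 29.9 and to 28.6, 26.6 and 21.2. Its chromosome 12 copy Rpl36al (chr12:70283718-70285070) was at 18.5, 19.02 and 18.7 CPM in In/B, 14.4, 15.3 and 21.3 in RA-sufficient PL and 10.5, 10.0 and 13.5 in RA-deficient PL, and passed in neither comparison (-0.08 ± 0.21 and -0.56 ± 0.24). The share of Rpl36al in the pair was 20.1% to 26.8% in In/B, 37.8% to 41.6% in RA-sufficient PL and 26.9% to 39.0% in RA-deficient PL, so both PL groups lay above In/B. Exact copies elsewhere covered 92.2% of the windows of Rpl36a and 62.8% of those of Rpl36al, so these counts also depend on the handling of reads with several matches.

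Rpl39l and Rpl39 passed in no comparison. Rpl39l (chr16:10170319-10175004) was at 55.5, 42.7 and 39.4 CPM in In/B, 49.8, 32.2 and 35.0 in RA-sufficient PL and 27.1, 38.3 and 35.7 in RA-deficient PL, with log2 fold changes of -0.18 ± 0.22 and -0.28 ± 0.22. Rpl39 was at 6.18 to 16.4 CPM in all libraries. Rpl39l held 75.1% to 88.8% of the counts of the pair in In/B and 66.9% to 83.9% in the PL libraries. Exact copies elsewhere covered 32.2% of the windows of Rpl39 and 0% of those of Rpl39l. The share of the pair thus also depends on the handling of reads with several matches.

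Rps4l had higher counts than its X-linked relative Rps4x in every library. Rps4l, a single-exon gene on chromosome 6 that RefSeq lists as a transcribed pseudogene, was at 105, 89.0 and 73.8 CPM in In/B, 50.6, 67.1 and 98.3 in RA-sufficient PL and 125, 127 and 134 in RA-deficient PL, where it passed higher against In/B (0.69 ± 0.16, adjusted p = 0.0106) and against RA-sufficient PL (0.84 ± 0.22, adjusted p = 0.0304). The X-linked Rps4x, a component of every ribosome, was at 7.29 to 14.4 CPM and passed in no comparison. Exact copies elsewhere covered 64.0% of the windows of Rps4x and 7.13% of those of Rps4l.

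The other paralogs changed in their own ways. Rpl7l1 was called lower in both PL groups, from 158, 165 and 145 CPM in In/B to 46.8, 54.6 and 62.0 and to 39.9, 54.9 and 42.4, by 1.46 and 1.60 on the log2 scale, whereas Rpl7 fell by 0.73 and 0.51. Its share of the pair went from 37.4% to 41.8% in In/B to 26.3% to 30.4% and 19.8% to 25.4%. Rps27l, a p53 target, passed in no comparison (49.2 to 72.7 CPM in RA-sufficient PL against 60.8 to 70.9 in In/B). Rpl22l1, at 2.36 to 10.7 CPM, overlapped in all groups, while its parent Rpl22 was called lower in RA-sufficient PL (-1.23 ± 0.12) and passed at -0.62 ± 0.16 in RA-deficient PL. Rpl3l, otherwise known from heart and skeletal muscle, was at 11.5, 9.71 and 1.01 CPM in RA-deficient PL against 3.75, 3.33 and 1.68 in RA-sufficient PL, and was called higher between the PL groups (1.87) only without RA-deficient PL replicate 3, the low library. Without that library it was also called higher against In/B (1.11, adjusted p = 0.0249). Rpl3 fell by 0.90 in each PL group.

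**Figure D5:**
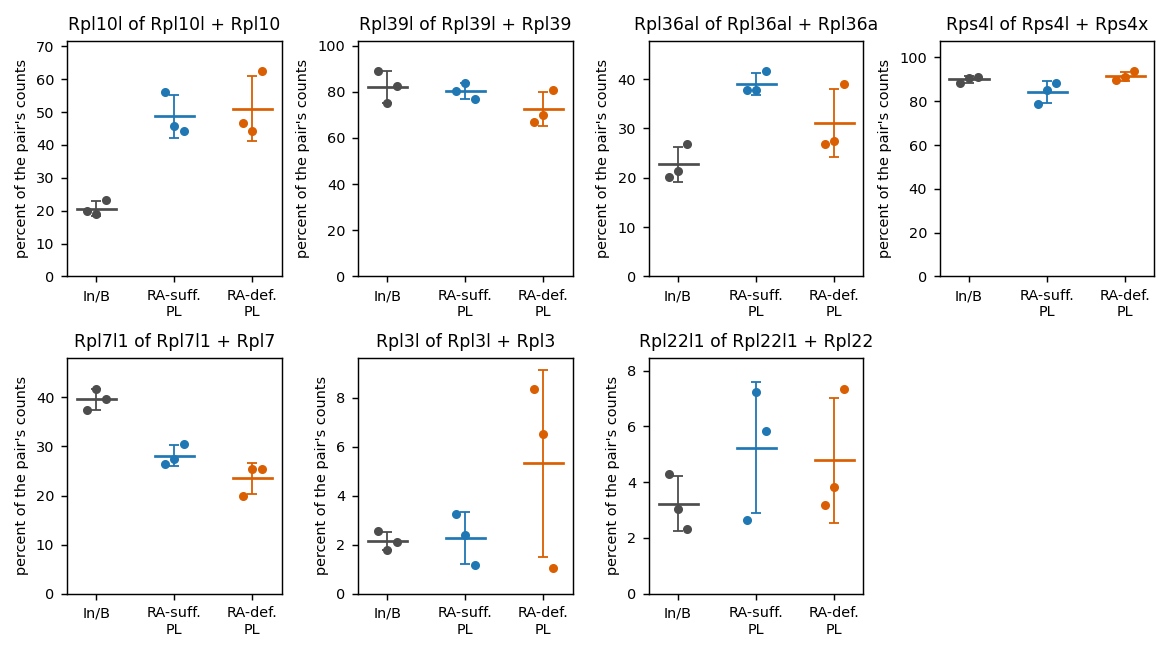
Percent of the counts of each paralog and its parent that fell on the paralog, in each library; points are libraries, lines means and bars SD (n = 3), and the vertical axes start at 0 with a scale for each panel. The Rpl10l share rises from 19.03% to 23.1% in In/B to 44.1% to 62.3% in the PL libraries.

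Rpl32l had the largest rise of any member in RA-deficient PL, at very low counts. Its counts were 1, 5 and 1 in In/B, 4, 0 and 1 in RA-sufficient PL and 13, 30 and 48 in RA-deficient PL. It was called against In/B (3.72 ± 1.11, adjusted p = 0.0314) but not against RA-sufficient PL (3.48 ± 1.38, adjusted p = 0.111), and the former call was lost without any one of the 3 In/B libraries (3.46 to 4.49) and, with no filter on low counts, at an adjusted p of 0.0529.

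Some canonical genes were nearly absent from the counts although every ribosome carries their proteins. Rpl26 had 1 count in In/B and 2 in RA-sufficient PL, and Rpl30 had 5, 15 and 2 counts in In/B, 2, 0 and 5 in RA-sufficient PL and 0 in each RA-deficient PL library. Neither passed the filter on low counts in any comparison, and both are named after their values were seen. A count of 0 allows up to 3 counts, or 0.111 to 0.238 CPM in these libraries. Rps27 was at 0.182 to 1.23 CPM and Rpl34 at 0 to 1.68, and neither passed in any comparison. The share of 75-base windows with an exact copy elsewhere was 71.5% for Rpl26, 55.8% for Rpl30, 99.6% for Rps27 and 49.5% for Rpl34, but also 94.5% for Rps6, which had 290 to 358 CPM in In/B. The part of copied sequence in these low counts was not tested.

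Copies elsewhere in the genome are common in this family. Of 84 members with a reference transcript, 79 had at least 1 copied window, 44 had more than 50% of their windows copied and the median was 53.7%. Canonical genes with at most 25% of windows copied (13 genes) had median log2 fold changes of -1.23, -0.58 and 0.66 in RA-sufficient PL against In/B, RA-deficient PL against In/B and between the PL groups. Those with more than 75% copied (25 genes) had medians of -0.95, -0.49 and 0.32. The direction was the same in both sets. The share copied depends on the reference transcript used, and some in the first set are long for their coding sequence, such as that of Rps20 (3706 bases, 360 coding). That of Rpl24, with 0% of windows copied, is annotated with the longest coding sequence of the canonical members (4999 bases, 3153 coding). The sets therefore rest on these transcripts, and the part of copied sequence in the medians was not tested.

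The 5′ pyrimidine tract was looked for in RefSeq promoter sequences (GRCm38.p6), which were given for 65 of the 86 members. A run was counted where a C followed by at least 5 further C or T bases began within 5 bases of the start, on the strand of the gene. The windows below run from 40 bases before the start to 20 bases from it; capitals mark the run. The first 3 hold a run and are shown for a member known for this tract and for the called members Rpl12 and Rps26, and the last 2 hold none and are the pair that moved in opposite directions. Their coordinates on GRCm38.p6 are chr4:86857348-86857407 (minus strand) for Rps6, chr2:32961672-32961731 (plus) for Rpl12, chr10:128626487-128626546 (minus) for Rps26, chrX:74270776-74270835 (plus) for Rpl10 and chr12:66284382-66284441 (minus) for Rpl10l, and are not comparable with those on NCBIM37.
Rps6: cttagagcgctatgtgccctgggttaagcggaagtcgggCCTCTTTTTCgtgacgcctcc
Rpl12: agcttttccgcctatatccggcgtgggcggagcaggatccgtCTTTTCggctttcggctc
Rps26: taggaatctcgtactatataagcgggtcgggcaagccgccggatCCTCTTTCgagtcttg
Rpl10: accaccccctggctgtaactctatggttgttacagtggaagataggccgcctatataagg
Rpl10l: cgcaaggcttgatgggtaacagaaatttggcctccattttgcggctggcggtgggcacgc

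Such a run was present in 25 of 57 canonical genes (43.9%) and 2 of 8 paralogs, against 3229 of 27025 genes in the promoter table (11.9%). Canonical genes with the run had median log2 fold changes of -1.17, -0.37 and 0.56 in RA-sufficient PL against In/B, RA-deficient PL against In/B and between the PL groups, and those without it had medians of -0.95, -0.46 and 0.40. A missing run says only that these letters are not near the annotated start.

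Genes that work with these proteins were read from lists of known members. Of 3 tested ribosome components outside the Rpl and Rps naming, 2, Fau and Rack1, passed lower in RA-sufficient PL (-0.87 and -0.92), against 31.2% of all genes. The third did not pass (-0.25). None of the 3 passed in RA-deficient PL (-0.14 for Fau, -0.10 for Rack1 and 0.35 for the third). Of 16 other mRNAs known for the 5′ pyrimidine tract, 15 had a lower estimate in RA-sufficient PL and 9 passed lower and 1 higher (against 31.2% and 33.8% of all genes), with a median of -0.67. In RA-deficient PL 5 passed lower and 3 higher (against 18.3% and 18.4% of all genes), with a median of -0.01. Between the PL groups 14 had a higher estimate and 6 passed (against 11% of all genes), with a median of 0.33. The elongation factor gene Eef1a1 fell by 1.13 and 0.69 in the 2 PL groups, Eef1g by 1.68 and 1.33, and Eef2 by 0.91 in RA-sufficient PL, with 0.16 in RA-deficient PL that did not pass and a difference of 0.96 between the PL groups that did.

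Of 21 tested genes of the mTOR pathway and of ribosome rescue, 5 were called lower and 3 higher in RA-sufficient PL, against 19.3% and 26.1% of all genes. In RA-deficient PL 3 were called lower and 6 higher, against 11.8% and 11.4%, and between the PL groups 2 were called higher, against 4.47%. Larp1b, a relative of the tract-binding Larp1, was called higher in both PL groups (2.45 and 2.57), and Larp1 itself passed in neither (-0.27 and -0.27). Eif4ebp1, an mTOR-controlled repressor of translation, was called lower in both (-2.66 and -1.19) and higher in RA-deficient than in RA-sufficient PL (1.36). Zfp598, a sensor of collided ribosomes, was also called higher between the PL groups (1.13).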

How the data were processed

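Raw counts per gene were deposited as 1 table of 9 libraries. According to the submitters' processing notes the authors trimmed reads with cutadapt 1.9, aligned them to mm9 with STAR 2.5.2b and counted them with featureCounts. Libraries were made with a stranded mRNA kit. The annotation, the strand setting and the handling of reads with several matches are not given in the sources used here. From the counts, pairs of groups were fitted with edgeR 4.0.16 (R 4.3.3): TMM scaling, filterByExpr, quasi-likelihood test without covariates, Benjamini-Hochberg adjustment over all genes tested. Log2 fold changes are given ± SE, and levels are CPM on TMM scaling over all 9 libraries. The steps were tested on simulated data. Alternatives were RLE, library size and member-free scaling, other filters, a single fit, a replicate block, DESeq2 1.42.0, stricter tests and each library left out.

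Copied windows were 75-base windows of a member's reference transcript (the longest coding sequence) found exactly elsewhere in NCBIM37. By name 82 members were matched, 2 by an older name and 2 not at all (Rpl32l and Rpl41). Named genes were the paralogs and parents, members with separate roles, the 4 largest falls and rises per comparison, the 3 highest in In/B and members called against the majority. The members, lists and rules were chosen with earlier results of these data known. The labels give the first WIN 18,446 course as ending on day 11. A few genes are not reported here by name, and they stay in the counts over all members.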

Additional observations from a re-analysis of the deposited data

Results flagged for a closer look

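Members called different between the RA-deficient and RA-sufficient PL groups, by the quasi-likelihood test in edgeR, differ in their change from In/B in the 2 PL groups. Among them, the log2 differences were 1.72 for Rps26, 1.48 for Rplp1, 1.47 for Rplp2, 1.26 for Rpl36, 1.11 for Rps13, 1.10 for Rpl12 and 1.09 for Rps2, each higher in 3 of 3 RA-deficient libraries than in any RA-sufficient library. Summed Sertoli genes stood at 277 to 496 CPM in RA-deficient PL and 2751 to 3581 in RA-sufficient PL, and their part in these differences was not tested. Groups of 3 libraries are too small for a test of single outlying values.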

How the results depend on the processing

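Under RLE scaling, TMM factors without the members, other filters and DESeq2, every count of members called or past the test stayed within 1.5 times its value. Library size scaling moved the median of all genes to -0.31 and -0.27 in the comparisons with RA-deficient PL; there 27 members were called lower and 3 passed higher against In/B (member median -0.74), and 5 were called and 16 passed higher between the PL groups (median 0.28). A test against a fold change of 2 left 21 lower in RA-sufficient PL, 1 lower and 0 higher in RA-deficient PL, and 1 higher between the PL groups. At an adjusted p of at most 0.01, 21 passed lower and 3 higher in RA-deficient PL, and 3 were called and 7 passed higher between the PL groups. One fit of all 9 libraries gave 5 past the test higher in RA-deficient PL.

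Leaving out each library in turn gave 1 to 2 members past the test higher in RA-sufficient PL; 9 to 17 called lower, 25 to 40 past the test lower and 3 to 10 higher in RA-deficient PL; and 5 to 15 called and 9 to 38 past the test higher between the PL groups. The replicate numbers were not used to pair the samples in the main fit. Deviations from the group means correlated at -0.27 to 0.13 for libraries of the same number and at -0.16 to 0.22 for libraries of different number. With 3 libraries a group, these values cannot show whether samples were paired. With the replicate block, members called lower or higher against In/B numbered 37 and 0 (RA-sufficient) and 14 and 2 (RA-deficient), and 9 were called higher between the PL groups; Rplp2 in RA-sufficient PL (adjusted p = 0.0511) and Rpl32l in RA-deficient PL (adjusted p = 0.13) lost their calls, and no other named call was lost.

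Over all named genes and alternatives, 34 values reversed, 55 lost a call and 21 gained one. None of the reversed values had been called. In RA-sufficient PL Rpl39 gave -0.0166 with no filter and -0.0183 in the fit of 9. By library size, Rps27 and Rps13 gave -0.0536 and -0.21 in RA-deficient PL, and Rpl7, Rpl10 and Rps18 gave -0.0827, -0.0549 and -0.13 between the PL groups. Over the left-out libraries the ranges were, in RA-sufficient PL, -0.27 to 0.0136 for Rpl36al, -0.26 to 0.0156 for Rps27l, -0.18 to 0.34 for Rpl39, -0.31 to 0.0465 for Rps27a, -0.40 to 1.07 for Rpl34 and -0.19 to 0.34 for Rps29; in RA-deficient PL, -0.39 to 0.18 for Rpl22l1, -0.31 to 0.12 for Rps26, -0.32 to 0.11 for Rps29 and -0.0276 to 0.22 for Rps13; between the PL groups, -0.0850 to 0.54 for Rpl22l1, -0.36 to 0.0245 for Rpl39l, -0.23 to 0.0316 for Rpl3, -0.0294 to 0.34 for Rpl10, -0.13 to 0.0763 for Rpl36a, -0.23 to 0.0844 for Rps4x and -0.0260 to 0.23 for Rps18. Causes were not tested.

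Rpl26, Rpl30, Rpl34, Rps27 and Rpl32l had too few counts for a stable estimate, and the cause of their low counts was not tested. With 3 libraries a group, p-values measure the spread between these libraries.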
